A study of Mus musculus with 9 samples.

Results

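The genes described here encode homeodomain transcription factors that pattern Rathke’s pouch, the pocket of oral ectoderm that forms the anterior and intermediate lobes of the pituitary gland. The members were chosen by name and were *Hesx1*, *Otx2*, *Pitx1*, *Lhx3*, *Lhx4*, *Six3* and *Six6*, which are 7 of the 55450 genes in the deposited counts. All 7 were matched by Ensembl identifier, and all 7 passed the filter of a mean count of at least 5.

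The study sequenced RNA of Rathke’s pouch, dissected from 7 *Sox2*Egfp/+ embryos at e13.5, and of the pituitary of 2 adult mice at postnatal week 8, without the posterior lobe. All animals were of a mixed 129Sv/c57BL6J background, and the *Sox2*Egfp/+ genotype is given in the study’s methods for the embryos only, so stage and genotype cannot be told apart. Both stages held males and females, but sex is not given per library, and its part in the differences between single libraries was not tested. Library preparation was directional, with 16738863 to 28537311 read pairs counted on genes in the embryos (median 24687556) and 36421545 and 31191117 in adults 1 and 2.

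The pouch forms where oral ectoderm meets the floor of the diencephalon, and signals from that tissue induce and maintain the expression of homeobox genes in the pouch. OTX2 and SIX3 act early, in the anterior neural plate and head ectoderm, HESX1 is a repressor of the early pouch, and PITX1, LHX3 and LHX4 carry the pouch through its growth. LIM-homeodomain proteins such as LHX3 act in complexes with the adaptor LDB1, and SIX-homeodomain proteins act with EYA and DACH cofactors or with Groucho corepressors. Several of these factors later bind the promoters of hormone genes in differentiated cells.

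Levels are given as CPM, the read pairs of a gene per 1e6 counted, scaled with the TMM factors of edgeR, and log2 fold changes are embryo over adult with their standard error (SE). Genes were called at a Benjamini–Hochberg adjusted p-value of edgeR’s quasi-likelihood test below 0.05 and a fold change above 4. The floor used for absent genes, 3 counts, stands for at most 0.220 CPM in the embryos and 0.0843 CPM in the adults, and it allows for the error of counting alone.

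The labelled tissue was first set against its markers. The epithelial markers *Epcam* and *Cdh1* and the progenitor factor *Sox2* were counted in every library. *Epcam* had 96.2 CPM in the lowest embryo, embryo 2, 139 CPM in the next, embryo 1, 276 CPM at the median and 298 CPM in the highest, embryo 3, with 417 and 416 CPM in adults 1 and 2. Libraries of embryos 1 and 4 stood apart from the rest. Their 8 red blood cell genes summed to 180121 and 225078 CPM, against 6424 to 20008 CPM in the other embryos and 762 and 1974 CPM in the adults, and only 59.7% and 62.8% of their read pairs were counted on genes, against at least 73.9% in every other library. Fold changes of the members are therefore also given without these embryos. *Hbb-y*, an embryonic globin, was the most abundant of the 8. Embryo 2 stood apart by the highest sum of 13 ventral diencephalon markers, 191 CPM against 62.7 to 111 CPM in the other embryos.

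Of the 7 members, 3 were called higher in the embryo (*Hesx1*, *Lhx4* and *Otx2*) and none was called higher in the adult. Among all 19371 genes tested, 11.3% were called higher in the embryo, 14.6% higher in the adult and 25.8% in either direction. Without the threshold on fold change, 5 of the 7 were higher in the embryo, beside 24.0% of all genes, and none was higher in the adult, beside 27.4%. Every embryo lay above both adults for 4 members, beside 26.2% of all genes, and every embryo lay below both adults for *Six3*, beside 32.9%. The groups overlapped for *Lhx3* and *Six6*. The median log2 fold change was 1.70 over the 7 members and −0.04 over all genes tested. In RNA from whole tissue, fewer cells of a type and less RNA per cell cannot be told apart.

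**Figure D1:**
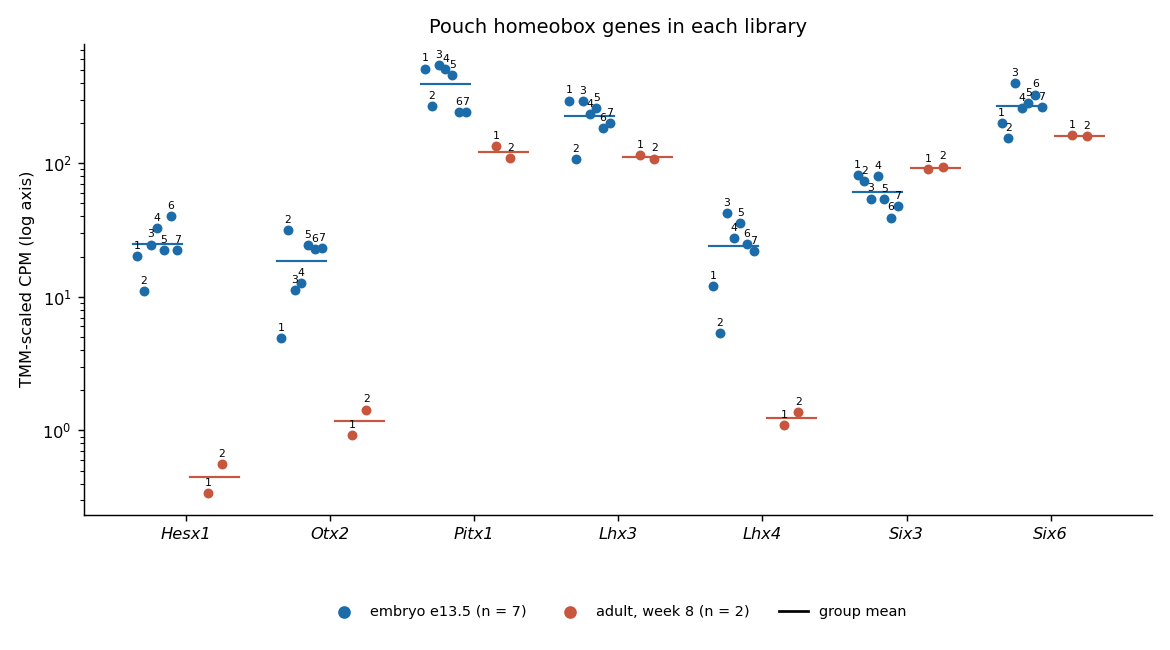
Level of each pouch homeobox gene in each library, as TMM-scaled CPM on a log axis; points are libraries, numbered by replicate, in blue for the 7 embryos and red for the 2 adults, and lines are group means. *Hesx1*, *Otx2*, *Lhx4* and *Pitx1* separate the stages upwards in the embryo, *Six3* downwards, and *Lhx3* and *Six6* overlap, with embryo 2 at 107 CPM of *Lhx3* below both adults.

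*Hesx1* (ENSMUSG00000040726.10, chromosome 14, 26994416 to 27002329 in GRCm38) encodes a paired-like repressor that has to be switched off before hormone cells differentiate. Its level was 11.0 CPM in the lowest embryo, 22.4 CPM at the median and 40.3 CPM in the highest, and 0.339 and 0.562 CPM in adults 1 and 2. These adult levels rested on 14 and 20 counts, above the floor. Embryo 2 was the lowest and embryo 6 the highest, and even embryo 2 was far above both adults. The log2 fold change was 5.77 (SE 0.59, adjusted p = 5.16e-06), a 54.7-fold difference. It was the largest change among the members, and it was 5.76 without embryos 1 and 4.

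*Otx2* (ENSMUSG00000021848.16, chromosome 14, 48657677 to 48673819) encodes a bicoid-type activator of anterior head development and of *Hesx1*. Its lowest embryo had 4.90 CPM, the median was 22.9 CPM and the highest embryo had 31.4 CPM, while adults 1 and 2 had 0.921 and 1.43 CPM. Embryo 1 was the lowest and embryo 2 the highest, which is the reverse of the order of *Lhx3* in these 2 embryos, and the groups did not overlap. For *Otx2* it was a log2 fold change of 3.99 (SE 0.68, adjusted p = 3.12e-04), and 4.28 without embryos 1 and 4. *Lhx4* (ENSMUSG00000026468.14, chromosome 1, 155698031 to 155751684) encodes the LIM-homeodomain paralog of LHX3 and is needed for the pouch to expand. It had 5.37 CPM in the lowest embryo, 24.7 CPM at the median and 42.1 CPM in the highest, against 1.09 and 1.38 CPM in the adults. Embryos 1 and 2 were lowest, at 12.0 and 5.37 CPM, and embryo 3 was highest. The highest embryo exceeded the lowest 7.85-fold, the widest range of the 7 members, yet no embryo was as low as the adults. The log2 fold change of *Lhx4* was 4.29 (SE 0.73, adjusted p = 2.90e-04), and 4.43 without embryos 1 and 4. In a fit with a replicate block, which holds only embryos 1 and 2 and the adults, it was 2.75 (adjusted p = 0.00584).

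The windows from 250 bases before to 50 bases after the annotated starts of these called members are shown because all 3 were called higher in the embryo. They are RefSeq sequences of GRCm38.p6, in which 6 of the 7 members had an entry, with 10 entries in all. Capitals mark TAATCC, the core bound by bicoid-type homeodomains such as those of OTX2 and PITX1, and TAATTA, a core of many other homeodomains, both searched on both strands, so that TAATCC also appears as GGATTA. The second core reads the same on both strands, and the motifs do not overlap here. The windows are chr14:27000112-27000411 on the plus strand for *Hesx1*, chr1:155741978-155742277 on the minus strand for *Lhx4*, and chr14:48665060-48665359 on the minus strand for the *Otx2* start with most matches of its 4.
Hesx1: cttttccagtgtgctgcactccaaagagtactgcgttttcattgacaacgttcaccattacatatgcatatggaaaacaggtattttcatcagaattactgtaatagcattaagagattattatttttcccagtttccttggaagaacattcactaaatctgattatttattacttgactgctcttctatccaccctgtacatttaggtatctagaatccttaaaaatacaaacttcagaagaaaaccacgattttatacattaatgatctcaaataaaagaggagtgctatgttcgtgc
Lhx4: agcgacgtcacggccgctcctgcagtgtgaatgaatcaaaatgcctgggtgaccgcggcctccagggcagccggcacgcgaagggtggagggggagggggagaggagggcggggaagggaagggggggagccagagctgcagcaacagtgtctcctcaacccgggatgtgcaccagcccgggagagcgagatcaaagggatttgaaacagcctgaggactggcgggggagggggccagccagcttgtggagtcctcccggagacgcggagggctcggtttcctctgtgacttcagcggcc
Otx2: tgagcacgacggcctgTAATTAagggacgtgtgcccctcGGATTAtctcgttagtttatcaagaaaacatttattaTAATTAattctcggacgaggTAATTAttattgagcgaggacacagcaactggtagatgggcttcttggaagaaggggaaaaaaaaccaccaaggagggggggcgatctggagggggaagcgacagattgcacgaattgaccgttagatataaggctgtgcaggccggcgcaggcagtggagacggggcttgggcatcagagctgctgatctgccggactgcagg
The *Otx2* window held TAATTA 3 times and TAATCC 1 time, and the windows of *Hesx1* and *Lhx4* held neither. Over the 10 entries of the members, TAATCC was in 1 and TAATTA in 2, both times in *Otx2* windows. Of all 32851 promoter windows of this length, 7.06% held TAATCC and 5.29% held TAATTA. A match only describes the letters in the window.

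*Pitx1* (ENSMUSG00000021506.7, chromosome 13, 55825051 to 55836192) encodes a bicoid-related factor of the oral ectoderm that stays on in the gland and activates several hormone genes. Embryo levels were 240 CPM at the lowest, 456 CPM at the median and 540 CPM at the highest, and adults 1 and 2 had 134 and 109 CPM. Embryos 2, 6 and 7 formed a lower set at 269, 242 and 240 CPM, and embryos 1, 3, 4 and 5 lay between 456 and 540 CPM, all above both adults. The log2 fold change was 1.70 (SE 0.40, adjusted p = 0.00304), a 3.25-fold difference that passed the test but not the threshold on fold change. It was 1.55 both without embryos 1 and 4 (adjusted p = 0.0047) and without adult 2, where a single adult remains. Over the alternatives with both adults, the adjusted p ran from 4.49e-05 to 0.00583, apart from the test against a fold change of 4. A change estimated below 4-fold cannot pass that test.

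*Lhx3* (ENSMUSG00000026934.15, chromosome 2, 26200212 to 26208289) encodes the LIM-homeodomain factor that most hormone lineages of the anterior lobe need. It had 107 CPM in the lowest embryo, 233 CPM at the median and 294 CPM in the highest, and 115 and 108 CPM in adults 1 and 2. Embryo 2 lay just below both adults, and the other 6 embryos lay above them, at 183 CPM or more. Embryo over adult, this was a log2 fold change of 1.0 (SE 0.35, adjusted p = 0.0290), and 0.93 without embryos 1 and 4 (adjusted p = 0.044). It was 1.03 without adult 1 (SE 0.51, adjusted p = 0.137) and 0.94 without adult 2 (SE 0.51, adjusted p = 0.172), so with a single adult the size of the change stayed and its error grew. With library size in place of TMM it was 0.76 (adjusted p = 0.0962), and after a correction for exon length and GC content 0.74 (adjusted p = 0.0962). The direction of the *Lhx3* change was the same in every alternative run. Apart from the test against a fold change of 4, its adjusted p ran from 0.00703 to 0.179.

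*Six6* (ENSMUSG00000021099.6, chromosome 12, 72939892 to 72944899) encodes a repressor that keeps progenitors of the pituitary and retina dividing. Its levels were 154 CPM in the lowest embryo, 262 CPM at the median and 396 CPM in the highest, with 163 and 159 CPM in adults 1 and 2. Embryo 2 was again the lowest and lay below both adults, and the other embryos were at 200 CPM or above. The log2 fold change of 0.74 (SE 0.33, adjusted p = 0.0764) did not pass the test. It was 0.85 without embryo 1 (adjusted p = 0.0423), 0.84 without embryo 2 (adjusted p = 0.0372) and 0.85 without embryos 1 and 4 (adjusted p = 0.0489). After the length and GC correction the log2 fold change was 1.24 (adjusted p = 0.00867). Apart from the test against a fold change of 4, the adjusted p ran from 0.00867 to 0.752 over the alternatives. The change was smaller with library size in place of TMM (0.52, adjusted p = 0.255). With a replicate block it was 0.17 (adjusted p = 0.752), but that fit holds only embryos 1 and 2, the lowest for *Six6*, beside the adults, so the block and the loss of embryos 3 to 7 cannot be told apart.

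*Six3* (ENSMUSG00000038805.10, chromosome 17, 85613608 to 85629302) encodes the forebrain paralog of SIX6. It had 39.1 CPM in the lowest embryo, 54.4 CPM at the median and 81.4 CPM in the highest, and 89.8 and 94.2 CPM in adults 1 and 2. It was the only member with every embryo below both adults. Embryos 1, 2 and 4 were closest to the adults, at 81.4, 73.5 and 79.6 CPM. Its log2 fold change of −0.59 (SE 0.29, adjusted p = 0.102) did not pass the test, but it was −0.75 without embryos 1 and 4 (adjusted p = 0.0243) and −0.84 with library size in place of TMM (adjusted p = 0.0291). It was nearer to 0 after the length and GC correction (−0.39, adjusted p = 0.321) and in the replicate block fit of embryos 1 and 2 and the adults (−0.21, adjusted p = 0.708). Library size alone also moved the median log2 fold change of all genes from −0.04 to −0.26. Apart from the test against a fold change of 4, the adjusted p of *Six3* ran from 0.0243 to 0.708 over the alternatives.

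Levels were compared between genes as CPM per kilobase of exon (CPM/kb), as mean ± SD. In the embryo the order was *Pitx1* (149 ± 51.9, n = 7), *Lhx3* (73.5 ± 22.0), *Six6* (67.0 ± 19.8), *Hesx1* (19.9 ± 7.49), *Six3* (11.3 ± 3.06), *Otx2* (4.42 ± 2.19) and *Lhx4* (4.21 ± 2.21). *Pitx1* was above *Lhx3*, *Six6* above *Hesx1* and *Six3* above *Otx2* in 7 of 7 embryos. *Lhx3* and *Six6* exchanged places between embryos, with *Lhx3* higher in 4 of 7, and so did *Otx2* and *Lhx4*, with *Otx2* higher in 3 of 7, so on this scale neither of these neighbours differed beyond the spread. *Hesx1* was above *Six3* in 6 of 7. In the adult the order was *Pitx1* (45.7 ± 6.69, n = 2), *Six6* (40.1 ± 0.769), *Lhx3* (36.8 ± 1.66), *Six3* (16.9 ± 0.570), *Hesx1* (0.361 ± 0.126), *Otx2* (0.279 ± 0.0858) and *Lhx4* (0.215 ± 0.0353), and it was the same in both adults. With the length of the longest transcript in place of all exons, *Lhx3* was above *Six6* in 7 of 7 embryos (101 and 67.0 CPM/kb) and in both adults, so their order depended on the length used. On that scale adult *Lhx3* and *Pitx1* were at 50.3 and 49.6 CPM/kb and exchanged places between the 2 adults, and *Otx2* stood above *Hesx1*.

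Set against all 19371 genes tested by CPM/kb, *Pitx1* ranked 392 in the embryo and 658 in the adult, *Lhx3* 779 and 891, and *Six6* 855 and 784. *Six3* ranked 4030 in the embryo and 2268 in the adult. *Hesx1*, *Otx2* and *Lhx4* ranked 2589, 7123 and 7284 in the embryo and 15743, 16274 and 16787 in the adult. The members thus formed a set of 4 genes that were among the more abundant transcripts at both stages and a set of 3 that were at 1.43 CPM or less in the adult.

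The paralog pairs were compared within each library as ratios of counts per kilobase of exon, which do not depend on the scaling between libraries. No ratio was computed with the length and GC correction. That correction moved the log2 fold change of *Lhx3* from 1.0 to 0.74 and of *Lhx4* from 4.29 to 4.60. *Six6* moved from 0.74 to 1.24 and *Six3* from −0.59 to −0.39. *Lhx3* exceeded *Lhx4* 13.1-fold in the lowest embryo, embryo 3, and 46.0-fold in the highest, embryo 1, and it exceeded *Lhx4* 197-fold and 147-fold in adults 1 and 2. Embryos 1 and 2 had the ratios nearest to the adults, and no embryo reached them. The mean log2 ratio was 4.30 ± 0.75 in the embryo (SD, n = 7) and 7.41 ± 0.30 in the adult (SD, n = 2), and the difference of −3.11 had p = 0.0278 in a two-sided exact permutation test, the smallest p that 36 arrangements of the libraries can give. *Six6* exceeded *Six3* 2.85-fold in the lowest embryo, embryo 2, and 11.3-fold in the highest, embryo 6, and 2.47-fold and 2.29-fold in adults 1 and 2. Every embryo was above both adults, though embryos 1 and 2 only narrowly, at 3.34-fold and 2.85-fold. The difference in log2 ratio was 1.31 (exact permutation p = 0.0556, 4 ratios tested in all), and it was 1.45 without embryo 1 and 1.49 without embryo 2, each with exact permutation p = 0.0357. With any other library left out the exact permutation p was between 0.0714 and 0.125.

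**Figure D2:**
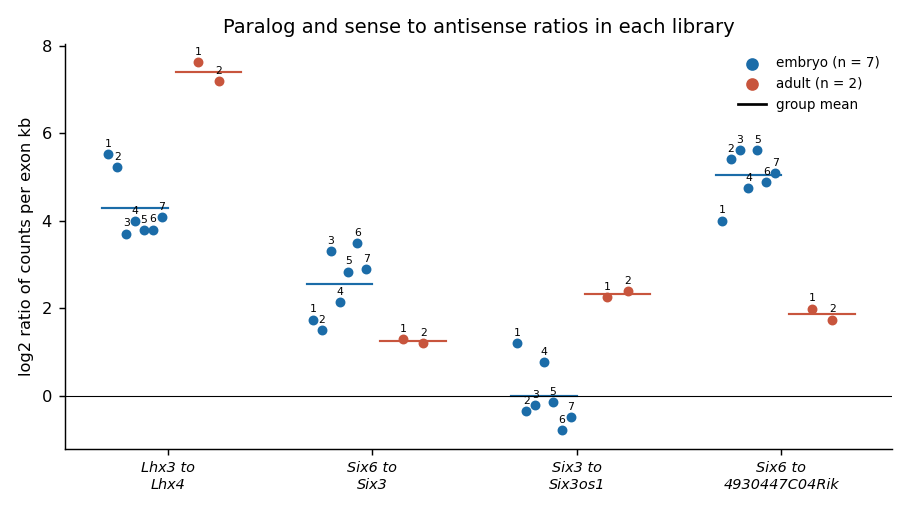
Log2 ratio of counts per kilobase of exon for the paralog pairs and for *Six3* and *Six6* over the genes on their opposite strand, in each library; points are libraries numbered by replicate, blue for 7 embryos and red for 2 adults, lines are group means and 0 marks equal levels. The stages separate in all 4 ratios, with the *Lhx3* to *Lhx4* mean at 4.30 in the embryo and 7.41 in the adult.

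The strand-specific counts separate *Six3* from *Six3os1*, a non-coding transcript on its opposite strand that shares 106 exonic bases with it. *Six3os1* had 77.2 CPM in the lowest embryo, embryo 1, 137 CPM at the median and 204 CPM in the highest, embryo 2, and 41.2 and 39.0 CPM in adults 1 and 2. Its log2 fold change was 1.75 (SE 0.35, adjusted p = 9.71e-04), opposite in sign to that of *Six3*, with every embryo above both adults, and it was 2.75 after the length and GC correction, past the threshold on fold change. Per kilobase of exon, the ratio of *Six3* to *Six3os1* ran from 0.578 in embryo 6 to 2.30 in embryo 1, and was 4.75 and 5.26 in adults 1 and 2. Embryos 1 and 4, at 2.30 and 1.69, were the only embryos with more of *Six3* than of *Six3os1*. The mean log2 ratio was −0.003 ± 0.715 in the embryo (SD, n = 7) and 2.32 ± 0.10 in the adult (SD, n = 2), and the difference of −2.33 had the smallest p that the exact permutation test allows, 0.0278. Read pairs on the opposite strand were 1.09% to 2.28% of those on both strands of *Six3* in embryos and between 0.652% and 0.776% in adults, below the 4.38% to 5.17% over all genes.

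On the strand opposite to *Six6* lies *4930447C04Rik*, also known as *Six6os1*, which shares 192 exonic bases with it. *4930447C04Rik* was called higher in the adult, with 12.1 CPM at the embryo median and 61.2 and 70.9 CPM in the adults (log2 fold change −2.42, SE 0.34, adjusted p = 6.78e-05). After the length and GC correction it was at −1.26, under the threshold on fold change. The ratio of *Six6* to it per kilobase of exon was 16.1 to 49.2 over the embryos, against 3.97 and 3.34 for adults 1 and 2, and the difference in log2 ratio of 3.19 again had exact permutation p = 0.0278. *Otx2os1* had at most 11 counts in an embryo and 0 in embryos 1 and 3 and both adults, so the groups overlapped. Its call (adjusted p = 0.0271) was lost without adult 1 (adjusted p = 0.140) and without adult 2 (adjusted p = 0.134), through the p alone, as the fitted change stayed similar. *Gm27196*, which overlaps *Lhx3*, had 5.56 CPM at the embryo median and 8.07 and 6.94 CPM in the adults (adjusted p = 0.256). *Pitx1* shares 165 bases with an antisense gene, and its unstranded count was 77.2% to 80.9% of its strand-specific count in embryos, beside 77.4% and 77.9% in adults 1 and 2, so its fold change was little altered by the strand used.

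The members differed in how they varied among the 7 embryos. Embryo 2 was the lowest for *Hesx1*, *Lhx3*, *Lhx4* and *Six6* and the highest for *Otx2*. Embryo 1 was the highest for *Lhx3* and *Six3* and the lowest for *Otx2*, and embryo 3 was the highest for *Lhx4*, *Six6* and *Pitx1*. The SD was 27.2% of the mean for *Six3* and 29.5% for *Six6*, the steadiest members, and 49.6% for *Otx2* and 52.5% for *Lhx4*, the most variable. Of the 21 pairs of members, none had an adjusted p below 0.05 for Pearson’s r of log2 CPM, and 2 had an unadjusted exact permutation p below 0.05, with the same number for Spearman’s rho. The strongest was *Lhx4* with *Six6*, with r = 0.930 (exact permutation p = 0.00317, adjusted p = 0.0667) and rho = 0.821 (exact permutation p = 0.0341, adjusted p = 0.329). Without embryos 1 and 2, the farthest from the median of *Lhx4*, r was 0.645, and without embryos 1 and 4 it was 0.942. With library size in place of TMM r was 0.905 and its adjusted p by exact permutation was 0.00833, so r hardly moved while the adjusted p crossed the threshold. *Lhx3* with *Pitx1* had r = 0.753 (exact permutation p = 0.0321, adjusted p = 0.225) and rho = 0.786 (exact permutation p = 0.0480, adjusted p = 0.329), and r was 0.841 without embryos 2 and 6 and 0.713 without embryos 1 and 4.

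The floor of the diencephalon lies against the pouch, and *Otx2*, *Six3*, *Six6*, *Hesx1* and *Lhx2* are also genes of that neural tissue during development. Of 13 markers of the ventral diencephalon and hypothalamus, 11 were tested. In the embryo 9 of them were called higher, beside 11.3% of all genes, and in the adult 1, *Vax1*, beside 14.6%. Their median log2 fold change was 4.48, or 3.69 with genes of at most 3 counts in a group set at the floor. Summed CPM of the 13 was 63.0, 191, 90.6, 62.7, 98.0, 111 and 89.2 in embryos 1 to 7, and 13.4 and 14.1 in adults 1 and 2. Embryo 2, with the highest sum, was the highest for *Otx2* and the lowest for 4 pouch members, and embryos 1 and 4 had the lowest sums. *Rax*, a homeobox gene of the eye field and hypothalamus, was the most abundant, with 48.4 CPM at the embryo median and 1.48 and 2.11 CPM in the adults (log2 fold change 4.83, adjusted p = 6.80e-06). *Nkx2-1*, the defining factor of the ventral diencephalon, had 21.6 CPM at the embryo median and 1.09 and 1.71 CPM in the adults. None of the 13 was at 0 over all embryos, and *Foxb1* was at 0 in both adults. Of the 9 called higher in the embryo, 4 lost the call when 1 library was left out.

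Across the embryos, log2 CPM of *Otx2* had r = 0.769 with the log2 of this sum (exact permutation p = 0.0540, adjusted p = 0.189) and rho = 0.679 (exact permutation p = 0.110, adjusted p = 0.583). For *Lhx3*, r was −0.843 (exact permutation p = 0.0266, adjusted p = 0.186) and rho was −0.607 (exact permutation p = 0.167, adjusted p = 0.583). Of these 7 relations none passed after adjustment. Without embryos 2 and 4, the farthest from the median of the sum, r was 0.891 for *Otx2* and −0.647 for *Lhx3*, and without embryos 1 and 4 it was 0.637 and −0.910. For *Lhx3*, r was −0.471 without embryo 2 alone and −0.385 with library size in place of TMM, so this relation depended on embryo 2 and on the scaling. Other relations also moved. For *Six3*, r went from −0.243 to −0.965 without embryo 2, but to 0.666 without embryos 1 and 4 and 0.101 with library size in place of TMM. Without embryo 2, r was 0.297 for *Hesx1*, 0.515 for *Lhx4* and 0.684 for *Six6*. Without embryos 1 and 4 these were −0.688, −0.931 and −0.853, so their sign depended on the embryos left out. For *Otx2*, r was 0.856 with library size in place of TMM (exact permutation, adjusted p = 0.0569). The part of neural tissue in the stage differences and in the spread between embryos was not tested.

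**Figure D3:**
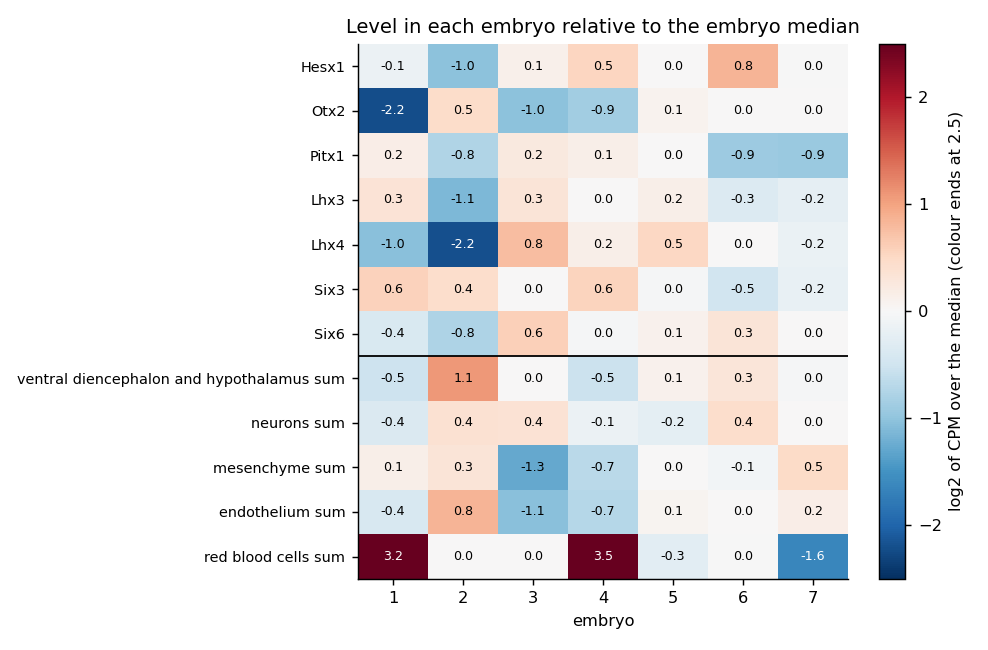
Level of each member, above the line, and summed level of marker lists, below it, in each of the 7 embryos, as log2 of CPM over the embryo median; columns are embryos and colours end at 2.5. Embryo 2 is low in *Lhx4*, *Lhx3*, *Hesx1* and *Six6* and high in the diencephalon sum, and embryos 1 and 4 are high in the red blood cell sum, at 180121 and 225078 CPM.

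Markers of the other tissues around the pouch were also given values in each stage. The counts of calls stand beside 11.3% of all genes called higher in the embryo and 14.6% higher in the adult. Of 10 mesenchyme markers, 6 were called higher in the embryo and 1, *Prrx1*, higher in the adult, and their sum, led by *Col3a1*, was lowest in embryo 3 (728 CPM) and highest in embryo 7 (2458 CPM), with 786 and 530 CPM in adults 1 and 2, so that embryo 3 was within the adult range. Of 4 cartilage markers, 3 were tested and called higher in the embryo, and their sum, led by *Col2a1*, was 161 CPM in the lowest embryo, 374 CPM in the highest and 15 and 8.82 CPM in adults 1 and 2, with *Matn1* at 0 in the adults. For 5 endothelial markers, led by *Emcn*, 1 was called higher in the embryo and the sums were 116 CPM in embryo 3, the lowest, 432 CPM in embryo 2, the highest, and 117 and 73.5 CPM in the adults. Of 4 oral and surface epithelium markers, led by *Krt14*, 2 were called higher in the embryo, with mean sums of 4.75 ± 2.32 CPM in the embryo (SD, n = 7) and 2.93 ± 0.246 CPM in the adult (SD, n = 2). Of 8 neuron markers, led by *Nefl* in the embryo, *Map2* was called higher in the adult (−2.84, and −1.27 after the length and GC correction, under the threshold), and the sums were 340 ± 76.1 and 489 ± 21 CPM. Of 4 markers of posterior lobe pituicytes, led by *Rax* in the embryo, *Nkx2-1* and *Rax* were called higher in the embryo and *Scn7a* higher in the adult, with sums of 88.2 ± 32.7 and 64.6 ± 18.0 CPM, and of 4 macrophage markers, led by *C1qb*, none was called (sums of 134 ± 52.3 and 101 ± 29.6 CPM). Of the 8 red blood cell genes 7 were called higher in the embryo, and 5 without embryos 1 and 4, where *Hba-a2* (1.78) and *Hbb-bs* (1.5) were under the threshold on fold change. Leaving out 1 library ended the call of 4 of the 7, of 1 of the 3 cartilage markers, and of both oral epithelium markers, *Krt5* without adult 1 (adjusted p = 0.148) and *Krt15* without adult 2 (adjusted p = 0.105). No member was part of these lists, and their part in the changes of the members was not tested.

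Genes in the list of LIM-homeodomain partners, which also held LIM-only genes and *Rlim*, were mostly higher in the embryo. Of 10 genes, all tested, 1 was called higher in the embryo, beside 11.3% of all genes, and none higher in the adult, beside 14.6%. At an adjusted p below 0.05 with any fold change, 7 were higher in the embryo, beside 24.0% of all genes. In the adult 1 was higher, beside 27.4%. Their median log2 fold change was 1.04, beside −0.04 over all genes. *Ldb1*, the adaptor that joins LIM-homeodomain proteins, had 242 CPM at the embryo median and 109 and 100 CPM in the adults (log2 fold change 1.33, SE 0.29, adjusted p = 0.00182). *Ssbp2*, which stabilises LDB1, had a log2 fold change of 1.93 (adjusted p = 2.56e-04), and 3.05 after the length and GC correction, past the threshold on fold change. *Lmo4*, a LIM-only protein that competes for LDB1, had one of 2.41 (adjusted p = 4.37e-05), the only call of the list in the main fit. *Rlim*, a ubiquitin ligase for LDB1 and LIM cofactors, went the other way at −1.98 (adjusted p = 4.12e-04), with 30.5 CPM at the embryo median and 112 CPM in each adult. After the length and GC correction *Rlim* was at −0.55, so its change depended on that correction.

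The EYA and DACH cofactors were called in both directions, as were all genes tested (11.3% higher in the embryo and 14.6% higher in the adult). Of 6 genes, *Eya2*, a transcriptional phosphatase, was called higher in the embryo (log2 fold change 2.18, SE 0.48, adjusted p = 0.00187), and *Dach2* was called higher in the adult (−2.60, SE 0.43, adjusted p = 2.52e-04). *Eya2* had 12.9 CPM at the embryo median and 3.66 and 3.40 CPM in the adults, and without embryo 2, its highest, the log2 fold change was 1.98, just under the threshold. *Dach1* (−1.87, adjusted p = 6.30e-04) and *Eya1* (−1.24, adjusted p = 0.0321) were higher in the adult without passing the threshold on fold change. After the length and GC correction *Dach2* was at −0.93 (adjusted p = 0.0988), *Dach1* at −0.85 and *Eya1* at −0.33, and *Eya2* at 1.74, so both calls depended on that correction. *Eya2* was also below the threshold with library size in place of TMM (1.96) and in the unstranded counts (1.84). The median of the 6 was −0.62. Among Groucho corepressors, which HESX1, SIX3 and SIX6 recruit, *Tle1* (1.03, adjusted p = 0.00708) and *Aes* (0.84, adjusted p = 0.0396) were higher in the embryo, and *Tle4* (−1.46, adjusted p = 6.86e-04) and *Tle2* (−1.07, adjusted p = 0.0110) were higher in the adult, none of them past the threshold on fold change. With library size in place of TMM *Tle1* (adjusted p = 0.0836) and *Aes* (adjusted p = 0.132) did not pass the test, nor did *Aes* after the length and GC correction (adjusted p = 0.0718), and in the replicate block fit, without embryos 3 to 7, *Tle1* (adjusted p = 0.130) and *Tle2* (adjusted p = 0.116) did not.

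**Figure D4:**
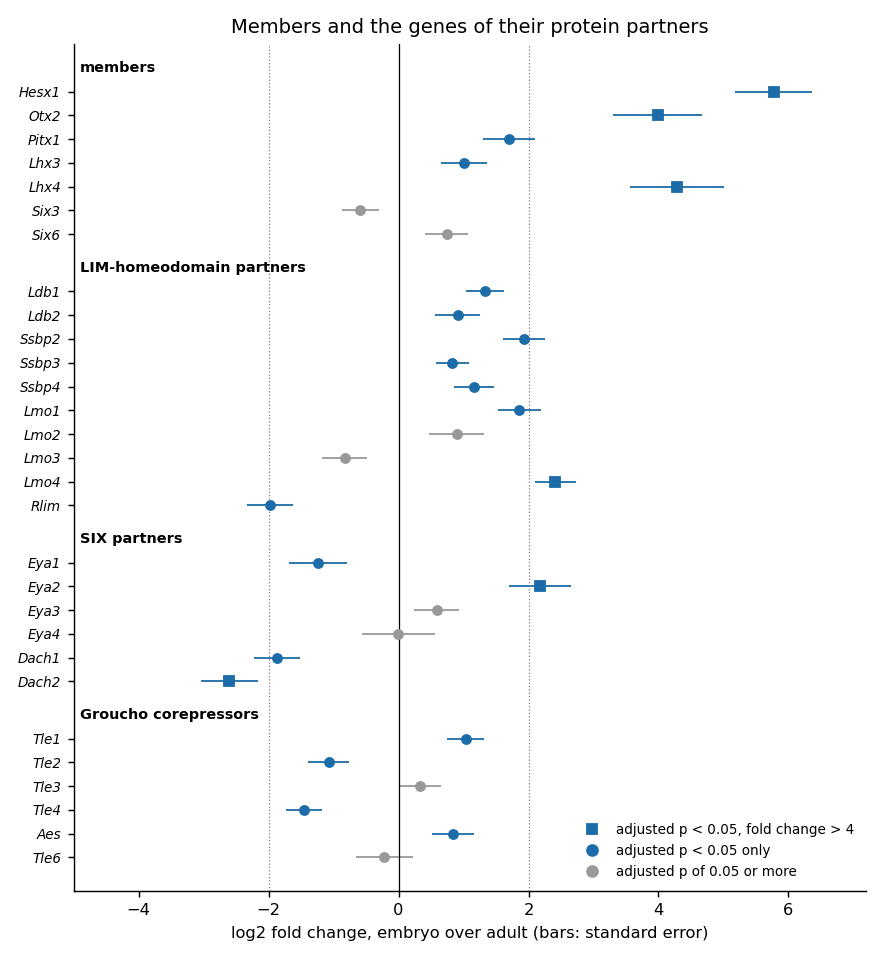
Log2 fold change of embryo over adult for the members and for the partner and corepressor lists, with bars for the standard error and dotted lines at a fold change of 4. The LIM-homeodomain list also holds LIM-only genes and *Rlim*. Squares passed both thresholds, blue circles the adjusted p only, and grey circles neither. *Hesx1*, *Lhx4* and *Otx2* lie at 5.77, 4.29 and 3.99. In the LIM-homeodomain list of 10 genes, 6 are blue circles higher in the embryo and 1, *Lmo4*, is a square.

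Of 21 other paired-like homeobox genes, 14 were tested. In the embryo 8 were called higher, beside 11.3% of all genes, and in the adult 1, beside 14.6%. Their median log2 fold change was 3.21 (2.78 with genes of at most 3 counts in a group set at the floor). *Gsc* (7.18, adjusted p = 1.89e-06) had 13.9 CPM at the embryo median and 0.0727 and 0.112 CPM in the adults. These adult levels were at or near the floor of 3 counts, so the size of the change rests on few counts. *Prrx1* (−2.82, adjusted p = 6.45e-05) was the call in the other direction, and it was at −1.28 after the length and GC correction, under the threshold on fold change. Leaving out 1 library ended the call of 2 of the 8 that were higher in the embryo.

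Of 10 other LIM-homeobox genes, 6 were tested, with a median log2 fold change of 1.89. Higher in the embryo were 3 calls, beside 11.3% of all genes, and higher in the adult 1, beside 14.6%. *Lhx2*, needed for the posterior lobe, had 21.8 CPM at the embryo median and 1.45 and 2.98 CPM in the adults (3.07, SE 0.53, adjusted p = 3.38e-04). *Lmx1a* had 4.78 CPM at the embryo median and 0.0969 and 0.112 CPM in the adults (5.41, adjusted p = 2.44e-04). Its adult levels were near the floor of 3 counts, so the size of its change rests on few counts. *Lhx6* (2.74, adjusted p = 0.0124) lost its call without adult 2 (adjusted p = 0.142) and in the replicate block fit, without embryos 3 to 7 (adjusted p = 0.167). *Lmx1b* was at 2 counts or fewer in every embryo and at 1.79 and 1.49 CPM in the adults. *Six2*, a further SIX-homeobox gene, had 128 CPM at the embryo median and 35.8 and 29.1 CPM in the adults (1.99, SE 0.48, adjusted p = 0.00349), and at 60.8 CPM/kb it stood near *Six6* in the embryo.

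Genes that act with or after the members in the pouch held calls in both directions. Of all genes tested, 11.3% were called higher in the embryo and 14.6% higher in the adult. Of 19 other pouch and lineage transcription factors, 18 were tested, 5 were called higher in the embryo and 4 higher in the adult, with a median of 0.43. *Sox3* (5.08) and *Gli1* (3.53) were called higher in the embryo, and *Pou1f1* (−6.39), *Nr5a1* (−4.38) and *Tbx19* (−3.96), factors of hormone lineages, were called higher in the adult. Of the 5 called higher in the embryo, 2 others lost the call when 1 library was left out. Of 8 hormone and receptor genes with promoters bound by PITX1 or LHX3 in the gland, 7 were called higher in the adult, with a median log2 fold change of −10.32, while *Pitx1* was higher in the embryo and *Lhx3* was above its adult level in 6 of 7 embryos. Of 16 signals of the pouch and its surroundings, 4 were called higher in the embryo and 2 higher in the adult. *Fgf8*, a diencephalic signal that maintains *Lhx3*, was lowest in embryo 1 (0.878 CPM) and highest in embryo 2 (12.4 CPM). Embryo 1 had a high red blood cell sum (180121 CPM), and embryo 2 the highest diencephalon sum (191 CPM). The relation of *Fgf8* to the members across the embryos was not tested.

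For each member, the 2 genes with the most similar pattern over the 9 libraries were taken from the 14078 genes that averaged 50 counts or more, by the root mean square (RMS) difference of centred log2 CPM. They were *Gldc* (RMS 0.349) and *Nkx2-1* (0.400) for *Otx2*, *Stac* (0.338) and *Pou3f4* (0.440) for *Lhx4*, and *Gm6472* (0.462) and *Cdkn1c* (0.474) for *Hesx1*. The other members, with smaller stage differences, had *Kcnn1* (0.162) and *Tjp3* (0.171) for *Lhx3*, *Nxph4* (0.185) and *Sars2* (0.193) for *Pitx1*, *Zdhhc1* (0.166) and *Gm16536* (0.168) for *Six3*, and *0610040J01Rik* (0.131) and *Wdr53* (0.194) for *Six6*. The RMS grows with the spread of a gene over the libraries, so it does not compare closeness between members. No pair of members appeared among these nearest genes, and *Nkx2-1* was the only ventral diencephalon marker among them.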

How the data were processed

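The authors prepared directional poly(A) libraries, trimmed the reads with Trimmomatic 0.39 and aligned them with STAR 2.7.5b to GRCm38 (mm10), per the study’s methods and the submitters’ processing notes. The deposited files hold raw counts of read pairs per gene of Ensembl release 96, and the strand-specific count was used. All 55450 identifiers were matched to GENCODE M21, which gave symbols, positions and exon lengths. Groups and replicate numbers come from the sample labels. The members and gene lists were chosen with earlier results of these data known.

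The 19371 genes averaging 5 counts or more were fitted in edgeR 4.0.16 (R 4.3.3) with TMM factors and stage as the only term, by the quasi-likelihood test with Benjamini–Hochberg adjustment, and called at an adjusted p below 0.05 and a fold change above 4. Python 3.11.15 was used for ratios, exact permutation tests (5040 orders of 7 embryos, 36 arrangements of 9 libraries, two-sided) and correlations of log2 CPM with a prior count of 0.5. The fit was tested on simulated data, where it found most large changes but few changes of 2-fold, so a change of about that size that did not pass is not shown to be absent. No pair of libraries of the same stage agreed within sampling noise. The adult spread comes from only 2 animals, and depth was 16738863 to 36421545 counted read pairs per library.

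The text names the members, genes of the lists, cell type markers and, for each member, the 2 genes with the most similar pattern; in lists of over 5 genes, at most the 4 largest changes in each direction, except *Nkx2-1*, *Foxb1*, *Matn1*, *Hba-a2*, *Hbb-bs* and the markers that lead a sum, which were chosen after their values were seen. Alternatives were DESeq2 1.42.0 (Wald test, and its size factors in edgeR), library size alone, other filters, the unstranded count, other thresholds, a test against a fold change of 4, a replicate block (embryos 1 and 2 and both adults only), each library left out, embryos 1 and 4 left out, and an offset for exon length and GC content fitted by natural splines (4 degrees of freedom). Leaving the 8 red blood cell genes out of the library size, and leaving out each library for the sense to antisense ratios, were chosen after seeing the data.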

Additional observations from a re-analysis of the deposited data

How the results depend on the processing

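The direction of each member’s change was the same under every alternative run. *Hesx1*, *Lhx4* and *Otx2* were called under each of them, with log2 fold changes from 5.11 to 6.16, 2.75 to 4.60 and 3.50 to 4.32. The number of members called, 3, was 5 with a fold change above 2 or with no threshold on it. For all genes, 5001 were called, and 2642 with at least 10 counts in every library, 8960 with a fold change above 2, 9948 with no threshold and 1744 in a test against a fold change of 4; for the partner and family lists 16 genes were called, and 8, 30, 34 and 8 under the same settings, as fewer or more genes were tested or passed. *Lhx3* no longer passed the test with library size alone (log2 fold change 0.76), in the test against a fold change of 4 (1.0), with a replicate block (0.71, adjusted p = 0.179), without adult 1 (1.03, adjusted p = 0.137) or adult 2 (0.94, adjusted p = 0.172) or after the length and GC correction (0.74), and *Pitx1* not in the test against a fold change of 4 (1.70) or without adult 2 (1.55, adjusted p = 0.0538). A change estimated below 4-fold cannot pass the test against a fold change of 4. *Six3* passed with library size alone (−0.84) and without embryos 1 and 4 (−0.75). *Six6* passed without embryo 1 (0.85), without embryo 2 (0.84), without embryos 1 and 4 (0.85) and after the length and GC correction (1.24). With a replicate block *Six3* and *Six6* were at −0.21 and 0.17. With each library left out in turn, the range was 0.94 to 1.12 for *Lhx3*, 1.55 to 1.84 for *Pitx1*, 0.67 to 0.85 for *Six6*, −3.32 to −2.89 for the log2 ratio of *Lhx3* to *Lhx4*, where 1 adult allows no p below 0.125, and 1.16 to 1.49 for *Six6* to *Six3* (exact permutation p from 0.0357 to 0.125). Of 21 pairs of members, 1 passed with library size alone and 0 with TMM. Apart from what the settings change by construction, the cause was not tested. The replicate block fit holds only embryos 1 and 2 and both adults, so its values cannot tell the block from the loss of embryos 3 to 7; it called 4151 genes. The numbers name different animals, and the deviations of same-numbered libraries correlated at 0.0758 and 0.0334. Without the red blood cell genes in the library size, an alternative chosen after seeing the data, no member changed its side of the threshold. With 2 adults and 14 to 51 counts of *Hesx1*, *Lhx4* and *Otx2* in each, depth limits the precision of their adult levels.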
